A study of Homo sapiens with 2 samples.

Results

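Genes of glutamate transport and glutamine metabolism were read from gene expression arrays of the human fibrosarcoma line HT1080, incubated for 24 h in wells coated with rLCC111 or in wells coated with BSA. rLCC111 is a recombinant heterotrimer of truncated mouse laminin α1, β1 and γ1 chains, which hold the coiled-coil part and some EGF-like modules. It was purified from the medium of transfected human cells, and BSA is the protein control. Cells on both coatings came from culture in DMEM with fetal calf serum and added L-glutamine, and the design names no other treatment. There was 1 array per coating, so no difference below has a replicate check, no p-value is given, and precision is limited by having 2 arrays. The set holds the transporters SLC1A1, SLC1A2 and SLC1A3 and the enzymes GLUL, GLUD1, GOT1 and GOT2. Of these 7 genes, 6 had a sequence on the array with that symbol alone, out of 18417 genes measured in this way, and GLUD1 was not analysed here. The genes were chosen by their differences between the 2 arrays (log2 RMA level on rLCC111 minus that on BSA), so those differences are a description and not a test.

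Glutamate is kept low outside cells by sodium-coupled carriers of the SLC1 family, which take up glutamate and aspartate and are known best from glia and neurons. Inside the cell, glutamine synthetase joins ammonia to glutamate, glutamate dehydrogenase releases it again as 2-oxoglutarate is formed, and aspartate aminotransferases pass the amino group between glutamate and aspartate. Cultured tumour cells commonly draw carbon and nitrogen from glutamine in the medium. The cytosolic and mitochondrial aspartate aminotransferases are also part of the malate-aspartate shuttle, which carries reducing equivalents into mitochondria.

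Levels are on the log2 scale of RMA, the summary that the authors deposited, and a difference is the level on rLCC111 minus that on BSA. To mark dim signals, a limit of silent genes was set at 6.62, below which lay 95% of 379 olfactory, taste, vomeronasal and trace amine receptor genes by their mean level. The differences of these receptor genes had an SD of 0.18, which describes the spread among dim genes and not that among wells. Over all 18417 genes the median difference was 0.00, and the array medians over all 33297 sequences were 7.12 on rLCC111 and 7.04 on BSA. Of all 18417 genes, 12700 had the brighter array above the limit. Of markers of a mesenchymal line, 8 of 9 measured were above the limit, with VIM, the intermediate filament of mesenchymal cells, at 12.98 on rLCC111 and 13.05 on BSA. EPCAM of epithelial cells, at 5.35 on each array, and PTPRC of blood cells, at 4.21 on each, were below it, although KRT8 and KRT18, keratins of simple epithelia, were above it.

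The promoters of SLC1A3 and GOT1 are shown because these were the 2 genes above the limit with the largest differences, in opposite directions. The RefSeq windows of GRCh38.p14 cover 6 of the 7 genes with 9 start sites, and SLC1A3 has 3 of these. Shown are the 250 bases before the first SLC1A3 start, chr5:36596338-36596587 on the plus strand, and before the GOT1 start, chr10:99430625-99430874 on the minus strand, both 5′ to 3′ along the gene. Capitals mark matches to TGATGNAA, the core bound by dimers of ATF4 and C/EBP factors at genes of the amino acid response, searched on both strands.
SLC1A3: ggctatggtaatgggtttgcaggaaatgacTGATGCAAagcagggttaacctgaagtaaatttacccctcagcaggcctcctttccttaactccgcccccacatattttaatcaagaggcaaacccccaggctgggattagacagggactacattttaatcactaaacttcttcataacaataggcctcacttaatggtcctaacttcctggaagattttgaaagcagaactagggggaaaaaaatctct
GOT1: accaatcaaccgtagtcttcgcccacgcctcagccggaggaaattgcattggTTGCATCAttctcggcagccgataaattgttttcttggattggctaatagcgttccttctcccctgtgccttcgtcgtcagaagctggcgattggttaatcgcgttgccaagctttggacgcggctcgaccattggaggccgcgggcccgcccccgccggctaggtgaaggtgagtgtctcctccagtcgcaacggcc
The match begins 220 bases before the SLC1A3 start, on the gene's own strand, and 198 bases before the GOT1 start, on the opposite strand, where it reads TTGCATCA. No match was found at the other 7 windows of the set, and 3.14% of 35116 windows of this length hold at least 1. In the same windows, CCAAT on either strand, the letters of the NF-Y box, occurred 5 times before GOT1, 2 times before the first GLUL start and once before the third SLC1A3 start, and it is present in 32% of all windows. None of the CCAAT letters overlap the capitals in GOT1, and CACGTG, the E-box of MYC, was in none of the 9 windows against 6.34% of all. TGACNNNGC, the core of the antioxidant response element, was in the second SLC1A3 window and the GOT2 window and in 10.9% of all, and TATAAA, the TATA box, was in none of the 9 against 10.7%. The first SLC1A3 window held 43.2% G and C, against 58.0% in the GOT1 window. A match is a match of letters only, the motif was picked after these sequences had been seen, and which start HT1080 cells use was not measured.

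SLC1A3, the glutamate and aspartate carrier known as EAAT1 or GLAST, was at a log2 level of 8.81 on rLCC111 and 7.80 on BSA. The difference was 1.01, a fold of 2.01, and both levels passed the limit. This difference was the 43rd highest of 18417 genes, and the genes at least 2-fold higher were 44, or 0.239%, against 0.0869% at least 2-fold lower, where the set had none. At 1.5-fold, 1.08% of all genes were higher and 0.543% lower, and SLC1A3 was the gene of the set past that line, with none of the set lower by as much. The balance of all genes at this line depends on the scaling, with 199 higher and 100 lower as deposited, 158 and 153 after quantile normalization, and 134 and 179 after median centring. Because SLC1A3 was chosen with its difference known, its place beside these shares is a description. SLC1A3 stood just past the 2-fold line as deposited and just under it after each rescaling. It was at 0.99 after removal of a lowess trend, 0.95 after quantile normalization and 0.93 after median centring. The same rescalings moved the median of the 18417 genes below 0, to -0.020, -0.058 and -0.079 in that order. Measured from this median, SLC1A3 lay at 1.007, 1.003 and 1.009. For median centring this is the deposited difference by construction, and for the others it adds back the median of the shift removed. These values are therefore no check on the 2-fold line. On these arrays of whole cultures, more cells with SLC1A3 mRNA and more of it per cell cannot be told apart.

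SLC1A1, known as EAAT3 and the main glutamate carrier of neurons outside synapses, was at 5.86 on rLCC111 and 5.41 on BSA. Its difference of 0.46, a fold of 1.37, was reached or passed by 377 genes, but both levels lay below the limit of silent genes. SLC1A2, known as EAAT2 or GLT-1 and the chief glutamate carrier of astrocytes, was at 4.96 on rLCC111 and 4.85 on BSA. Its difference was 0.11, a fold of 1.08, and it was the dimmest signal of the set relative to the limit, 1.66 below it on rLCC111 and 1.76 below it on BSA. All 3 carriers were thus higher on the rLCC111 array, and SLC1A3 was the carrier whose signal stood above the level of silent genes. For the 2 dim carriers the sign says little, because the 379 receptor genes also leaned upward on rLCC111. Of these receptor genes 49.3% were above 0 and 30.1% below, although their median was 0.00, and 2.64% were at least 1.5-fold higher against 0% lower. In units of their SD of 0.18, SLC1A1 lay at 2.51 and SLC1A2 at 0.58, which is a description and not a test. The difference of SLC1A3 exceeded that of SLC1A1 by 0.55 and that of SLC1A2 by 0.90 on the log2 scale. With 1 array per coating these gaps have no error.

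**Figure D1:**
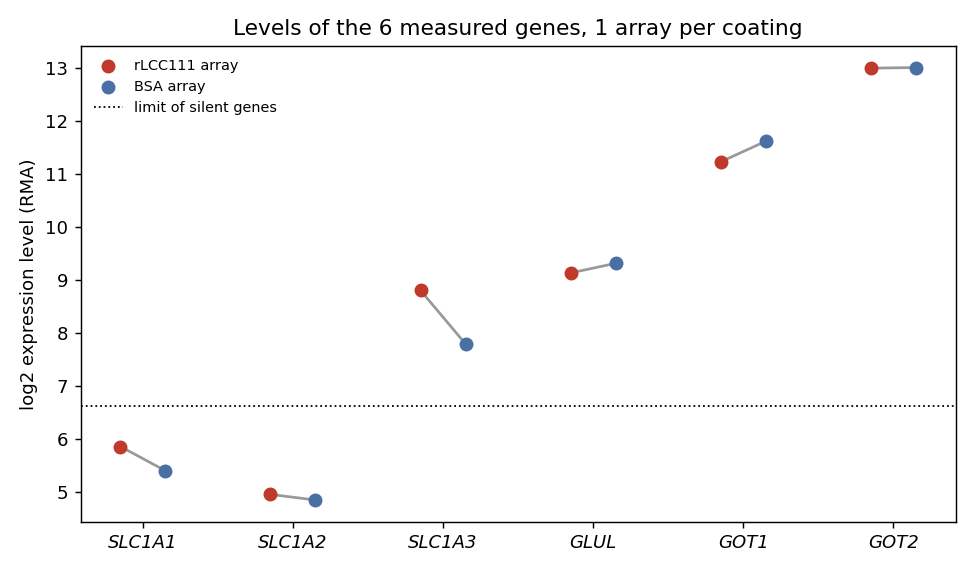
Log2 expression level (RMA, vertical) of the 6 measured genes on the rLCC111 array (red) and on the BSA array (blue), 1 array per coating; grey lines join the levels of 1 gene and the dotted line is the limit of 6.62. SLC1A3 shows the steepest line, with 8.81 on rLCC111 and 7.80 on BSA, GOT1 slopes the other way, and SLC1A1 and SLC1A2 lie below the dotted line on each array.

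All 3 measured enzymes had differences below 0 as deposited. GOT1, the cytosolic aspartate aminotransferase, was at 11.23 on rLCC111 and 11.62 on BSA. Its difference was -0.39, a fold of 0.764, or 23.6% lower on rLCC111. A difference this low or lower was found for 411 of the 18417 genes, and it was inside the 1.5-fold line. GOT2, the mitochondrial form of the same enzyme, was at 13.00 on rLCC111 and 13.01 on BSA, a fold of 0.992. Its difference was -0.01 as deposited and 0.02 after removal of a lowess trend, so it has no settled sign. The difference of GOT1 was 0.38 below that of GOT2 on the log2 scale.

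GLUL, glutamine synthetase, is measured by 2 sequences, of which the brighter was at 9.13 on rLCC111 and 9.32 on BSA. This was a difference of -0.18, a fold of 0.882, with 2190 genes at or below it. The other sequence was at 9.12 on rLCC111 and 9.30 on BSA, a difference of -0.17. The sequences list the same transcripts in the platform's annotation, so their likeness is no replicate check. RefSeq holds 6 pseudogenes named after GLUL and 7 named after GOT2, and signal from such near copies cannot be told apart here from that of the genes. The size of the GLUL difference equalled the SD of 0.18 among the receptor genes.

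As a set, 3 genes were higher and 3 lower on rLCC111, split between carriers and enzymes, while 46.2% of all genes were higher and 46.6% lower by any amount. The median of the 6 differences was 0.05, beside 0.00 over all genes, and they ran from -0.39 for GOT1 to 1.01 for SLC1A3. Among the 3 carriers the median was 0.46, set by the dim SLC1A1, and among the 3 measured enzymes it was -0.18. The sign of each gene except GOT2 was the same under all 5 scalings or summaries tried. The mean over sequences could change only GLUL, the gene with 2 sequences, and median centring lowers every gene alike by 0.079.

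**Figure D2:**
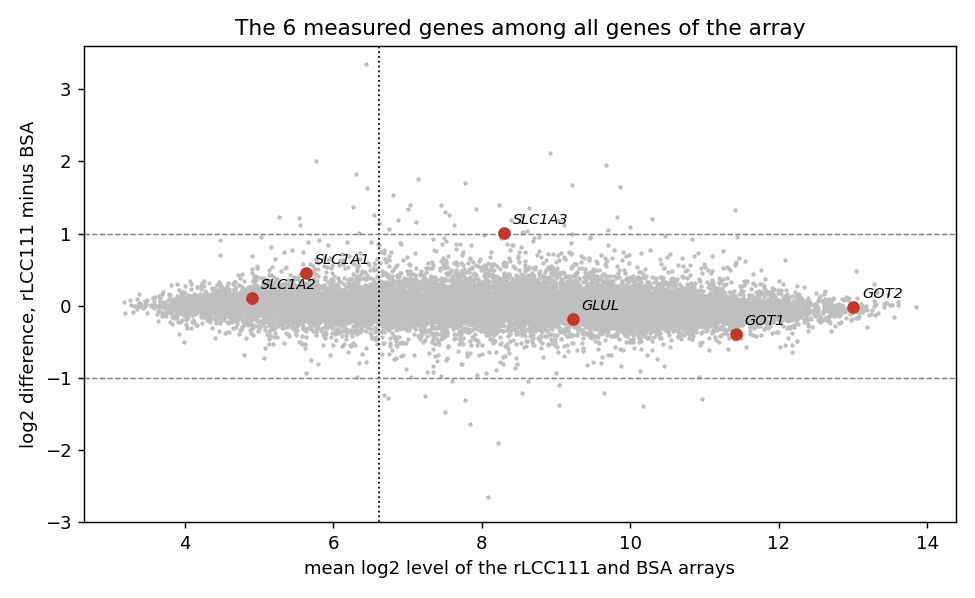
Difference, rLCC111 minus BSA on the log2 scale (vertical), against the mean log2 level of the arrays (horizontal) for 18417 genes in grey and the 6 measured genes in red; dashed lines mark 2-fold and the dotted line the limit of 6.62. SLC1A3 sits on the upper 2-fold line at 1.01, GOT1 lies at -0.39, and GOT2 lies at the line of no difference.

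**Figure D3:**
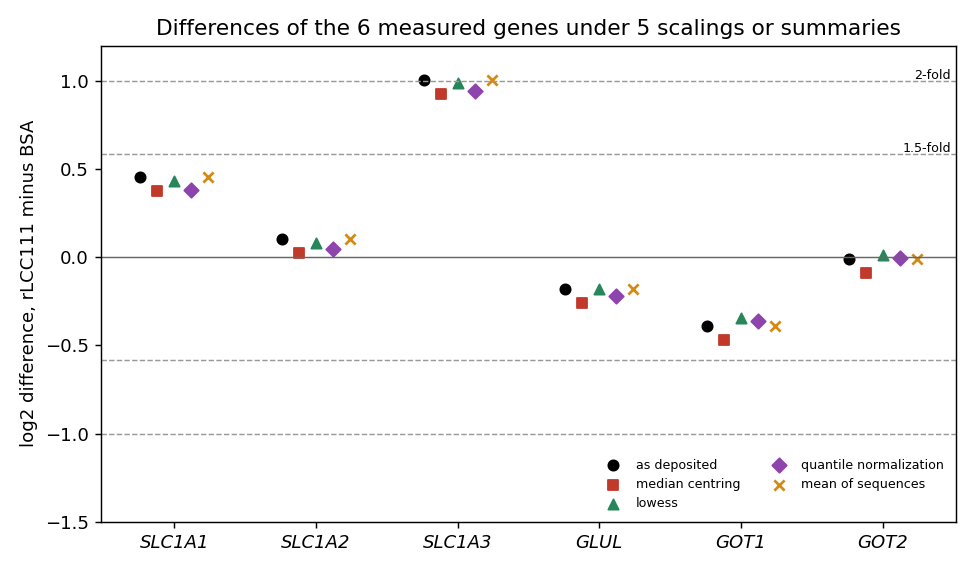
Difference, rLCC111 minus BSA on the log2 scale (vertical), of each of the 6 measured genes as deposited and under 4 other scalings or summaries (symbols), with dashed lines at 1.5-fold and 2-fold. SLC1A3 runs from 0.93 to 1.01, straddling the 2-fold line, GOT1 from -0.47 to -0.34, and GOT2 lies on both sides of 0.

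Genes whose levels on both arrays were nearest to those of SLC1A3 were sought among the 12700 genes with the brighter array above the limit, by Euclidean distance over the 2 arrays. The nearest was FAT4, a large cadherin, at 8.74 on rLCC111 and 7.80 on BSA, a distance of 0.070. ITPR2, a calcium release channel of the endoplasmic reticulum, followed at 8.77 on rLCC111 and 7.92 on BSA, a distance of 0.13. MANBA, a lysosomal mannosidase, was at 8.99 on rLCC111 and 7.80 on BSA, a distance of 0.18. With 2 arrays such likeness is that of 1 difference and 1 level.

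The other genes of the pathway were taken from 12 lists that cover 115 further genes, 103 of them measured. As deposited none was at least 1.5-fold higher, beside 1.08% of all genes, and 2 were at least 1.5-fold lower, PSAT1 and ASNS, or 1.94% beside 0.543%. After median centring 3 were at least 1.5-fold lower, with SLC38A1 as the third, and 179 of all genes in place of 100. None reached 2-fold in either direction, and the median of these 103 differences was -0.01.

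Within the SLC1 family, the carriers of neutral amino acids lay opposite to SLC1A3. SLC1A4, which exchanges alanine, serine and cysteine, was at 8.76 on rLCC111 and 9.23 on BSA, a difference of -0.47. SLC1A5, the main glutamine carrier of many tumour cells, was at 11.11 on rLCC111 and 11.56 on BSA, a difference of -0.44. The remaining glutamate carriers SLC1A6 and SLC1A7, of cerebellum and retina, were below the limit, with differences of -0.01 and 0.03, the second of which turned below 0 after median centring and quantile normalization. Of the 7 family genes the 3 above the limit were therefore SLC1A3, which was higher, and SLC1A4 and SLC1A5, which were lower on rLCC111. The median of the whole family was 0.03, and that of these 3 genes was -0.44.

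Among 13 other carriers of glutamine, cystine and exchanged amino acids, none passed 1.5-fold as deposited. SLC38A1, a sodium-coupled glutamine carrier, was at 11.73 on rLCC111 and 12.30 on BSA, a difference of -0.57, and it was past the line at -0.65 after median centring. SLC7A8, the LAT2 exchanger of neutral amino acids, was at 7.77 on rLCC111 and 7.23 on BSA, a difference of 0.55. SLC7A11, the exchanger that releases glutamate in return for cystine, had a difference of -0.37, its partner chain SLC3A2 -0.41, and SLC7A5, the LAT1 exchanger that gives out glutamine for leucine, -0.45. The last 3 carriers had log2 levels between 11.02 and 11.90 on rLCC111 and between 11.43 and 12.35 on BSA. The list's median was 0.00, with 6 genes above 0 and 6 below.

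Aminotransferases that use glutamate had a median of -0.04 over 12 measured genes. PSAT1, which makes phosphoserine on the way to serine, was at 10.05 on rLCC111 and 10.88 on BSA, a difference of -0.83 and a fold of 0.563. It was followed by GOT1, while the other 10 genes lay between -0.24, for AADAT, and 0.12, for GPT. In the malate-aspartate shuttle and the mitochondrial glutamate carriers, GOT1 had the difference farthest from 0, and the other 8 measured genes ran from -0.11, for the oxoglutarate carrier SLC25A11, to 0.08, for the aspartate-glutamate carrier SLC25A13. The median of these 9 genes was -0.01.

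Enzymes that take the amide nitrogen of glutamine had a median of -0.06 over 9 measured genes, 7 of them below 0. Among the 12700 genes with the brighter array above the limit, 50.3% were below 0. ASNS, asparagine synthetase, was at 9.21 on rLCC111 and 10.01 on BSA, a difference of -0.80 and a fold of 0.575. CTPS2, a CTP synthase, was at 8.82 on rLCC111 and 8.50 on BSA, a difference of 0.32. Glutathione genes were below 0 in 6 of 7 cases, beside the same 50.3%, with a median of -0.07. No spread is at hand for this median, because the SD of 0.18 is that of single dim receptor genes. GCLM, the modifier subunit of glutamate-cysteine ligase, was at -0.32, and GGT7, of the gamma-glutamyltransferase family, at 0.47. For proline made from glutamate, PYCR1, a pyrroline-5-carboxylate reductase, had a difference of -0.32 and PYCR3 0.20, and the median over 5 genes was 0.01. Of 6 measured aspartate-using enzymes, ADSS1 was farthest from 0 above the limit, at 0.22, followed by ADSL at -0.15; both act in adenylate synthesis from aspartate.

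ATF4, a transcription factor of the amino acid response whose known targets in human and mouse cells include ASNS and PSAT1, was at 10.94 on rLCC111 and 11.44 on BSA, a difference of -0.50. MYC, known to raise glutamine use in tumour cells, was at 10.33 on rLCC111 and 10.69 on BSA, a difference of -0.36. The remaining 9 measured regulators and partners lay between -0.20 and 0.09, with a median over all 11 of 0.06. The part of either factor in any difference was not tested.

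**Figure D4:**
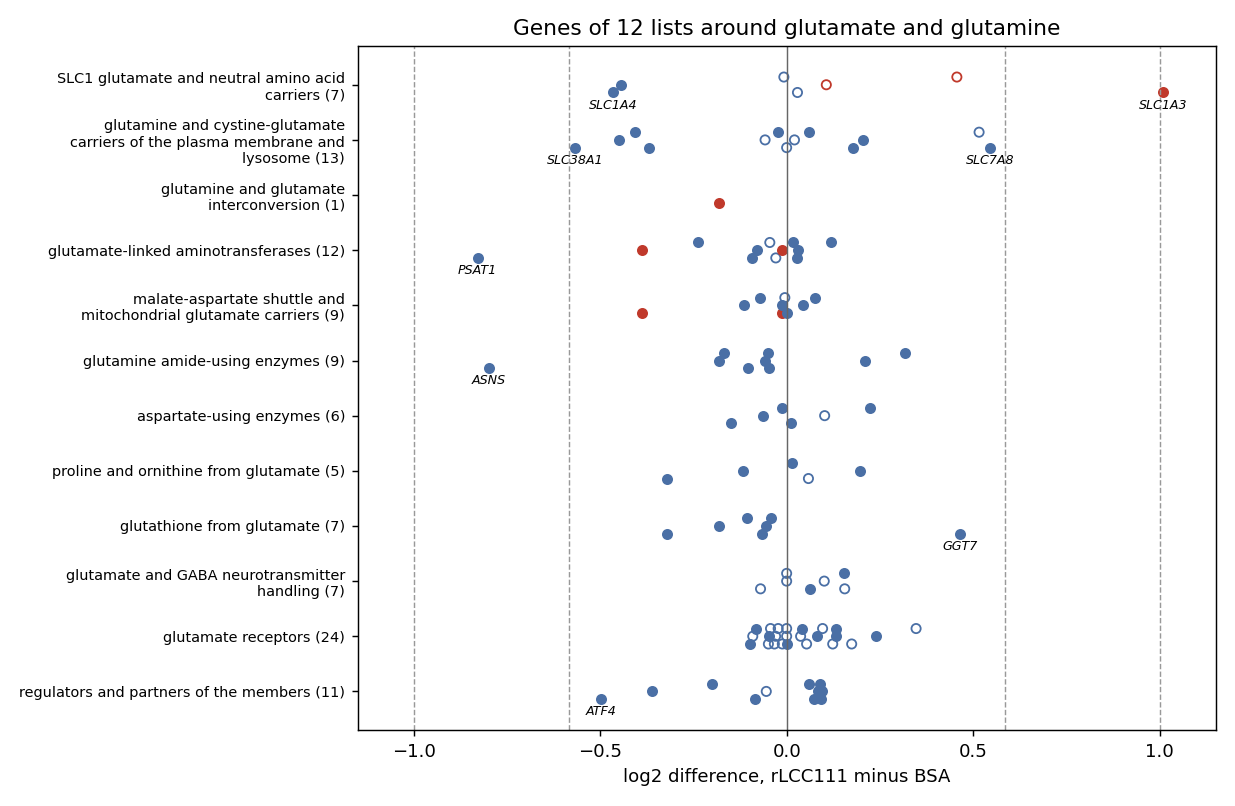
Difference, rLCC111 minus BSA on the log2 scale (horizontal), of each measured gene of 12 lists (rows, number of measured genes in brackets); red marks the 6 genes of the set, open circles genes with both arrays at or below the limit, and dashed lines 1.5-fold and 2-fold. SLC1A3 lies farthest to the right at 1.01, PSAT1 at -0.83 and ASNS at -0.80 farthest to the left, and receptors for glutamate cluster near 0.

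Neural partners of these carriers showed little difference. Of 24 measured glutamate receptor genes, 15 were not above the limit, the median was 0.00 and none passed 1.5-fold. GRID1 had the largest difference above the limit, at 8.08 on rLCC111 and 7.84 on BSA, and GRIN2C was at 6.96 on rLCC111 and 6.82 on BSA. Of 7 genes that make, load or remove glutamate and GABA in neurons, GAD1 and ABAT had a brighter array above the limit, with differences of 0.06 and 0.15, and the sign of GAD1 turned after median centring and quantile normalization. Because SLC1A2, SLC1A3 and GLUL are also genes of astrocytes, 8 astrocyte markers were read beside them. The differences of the 8 ran from -0.23, for the transcription factor SOX9, to 0.46, for ALDH1L1, a folate enzyme that astrocytes share with other tissues, which was at 8.27 on rLCC111 and 7.82 on BSA. Of the 8 markers 3 had the brighter array above the limit, with SOX9 at 10.09 on rLCC111 and 10.32 on BSA. The median level of the 8 markers was 6.36 on rLCC111 and 6.19 on BSA, and the part of any of them in the SLC1A3 difference was not tested. GFAP lay at 7.11 on rLCC111 and 7.18 on BSA, above the limit, and whether HT1080 cells use it was not tested. The limit lies above 95% of the receptor genes and not all, so a level above it alone does not show that a gene is used.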

How the data were processed

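Total RNA of HT1080 cells was copied into cDNA and transcribed in vitro. The resulting cRNA was hybridized in fragments to Human Gene 1.0 ST arrays, 1 per coating. The authors converted the scans by the RMA algorithm of Affymetrix Expression Console; the values they deposited are log2 levels; version, settings and genome build are not given in the sources used here. RMA includes a background correction and a normalization before probes are combined. The methods name limma, which was not used because 2 arrays leave no residual degree of freedom.

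Of 33297 sequences, 19460 have 1 symbol in the platform's annotation, 1754 several and 12083 none; only the first kind were used. Where a gene had more than 1 sequence, the brightest by mean level was taken. Alternatives were median centring, quantile normalization, subtraction of a lowess curve (span 0.2, with 3 robustness iterations), the mean over sequences, and filters on the limit of silent genes; a log2 value counted as moved when it shifted by over the SD of 0.18, and a count when it changed by over 1.5 times. Named were the 7 genes, pathway genes past 1.5-fold above the limit, and the 2 largest differences above it in each list. SLC1A5 to SLC1A7, SLC3A2, SLC7A5, SLC7A11, AADAT, GPT, SLC25A13 and the motif were picked after their values or sequences were seen, and of the markers the text gives examples. The genes and lists were chosen with earlier results of these data known. Lists of endothelial and of HEK-293 or neural markers had 1 of 6 genes each above the limit, CLDN5 and NEFL; of the epithelial list 3 of 6 and of the blood list 1 of 4 measured were above it. Counting was tested on simulated data. Python 3.11.15, numpy 2.4.6, pandas 2.3.3, statsmodels 0.14.6 and matplotlib 3.10.9 were used.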

Additional observations from a re-analysis of the deposited data

How the results depend on the processing

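The number of genes of the set at least 2-fold higher on rLCC111 was 1 as deposited and 0 after median centring, 0 after removal of a lowess trend and 0 after quantile normalization, because SLC1A3 then lay between 0.93 and 0.99. The number at least 1.5-fold higher was 1 and the number at least 1.5-fold lower was 0 under each of these, under the mean over sequences and under both filters on the limit. Median centring raised the other pathway genes at least 1.5-fold lower to 3 and lowered every difference by 0.079. Over all genes, those at least 1.5-fold lower were 100 as deposited, 179 after median centring and 153 after quantile normalization, those at least 2-fold lower 16 as deposited and 25 after median centring, and those at least 2-fold higher 44 as deposited and 26 with both arrays above the limit. The median of the SLC1 family, 0.03 over all 7 genes, was -0.44 with either filter on the limit, which leaves 3 genes. No paired analysis was possible because each coating has 1 array and the labels carry no replicate numbers. Leaving out a replicate was likewise not possible.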

Other observations

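Of the 18417 genes, 1325, or 7.19%, had the same level on the rLCC111 and BSA arrays to every digit given, among them SLC17A7 and SLC32A1, which load glutamate and GABA into vesicles, and the glutamate receptor genes GRIK1, GRIN1 and GRM3. None of the 6 measured genes of the set did. A median difference of 0.00 over all genes or over a list is therefore in part a count of such ties.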
